A study of Rattus norvegicus with 64 samples.

Results

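Ctgf, Cplx3, Nxph4 and Nr4a2 are RNAs commonly used to mark the subplate of the developing cortex and its adult remnant, layer VIb. They were followed in the rat entorhinal cortex as the 4 of 5 listed markers that have a row among the 17260 genes of the count tables. The members were taken by gene symbol. Moxd1, the fifth listed marker, was not analysed here.

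RNA was sequenced from 64 tissue samples of Long Evans rats, from the medial (MEC) and the lateral entorhinal cortex (LEC), from layer II (LII) and from the deep layers (LDeep), at postnatal days P2, P9, P23 and P45. Each of the 16 groups of region, layer and age held 5 (P2), 4 (P9), 3 (P23) or 4 (P45) samples. The labels give no genotype, treatment or sex, and every group is normal tissue that differs from the others in region, layer and age. For the MEC, the study's methods describe LDeep as layers III to VI in a single piece, taken on both sides of the brain from unstained sections. The dissections are described as centred in the MEC and away from its borders, and how much of layer VIb each LDeep sample held was not measured. The study's legends call its MEC samples biological replicates. For its microRNA array samples, a legend gives LII and LDeep of the same animal a shared number within an age. No legend does so for the sequenced samples. The labels give replicate numbers in both regions without saying that they stand for animals. A fit with the replicate number as a block is therefore given where it changes a call.

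Subplate neurons are among the first neurons born in the cortex. They lie beneath the cortical plate, receive early thalamic input and guide the growth of thalamic axons, and many of them are lost as the cortex matures. The survivors form a narrow band next to the white matter that is called layer VIb in rodents. Ctgf (also Ccn2) encodes a secreted matricellular protein of the CCN family, which fibroblasts and vascular cells also make. Nxph4 encodes a neurexophilin, a secreted glycoprotein that binds alpha-neurexins. Cplx3 encodes a complexin, a small SNARE-binding protein that regulates transmitter release. Nr4a2 (Nurr1) encodes an orphan nuclear receptor that acts as a transcription factor, and it also marks the claustrum, the endopiriform nucleus and dopamine neurons.

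In the Rn6 build used for counting, all 4 genes lie on the minus strand. Ctgf lies at chr1:21851658-21854773 with 5 exons and 2335 exonic bases, and Nxph4 at chr7:70833662-70842405 with 4 exons and 1555 exonic bases. Cplx3 lies at chr8:62379502-62386264 with 3 exons and 3392 exonic bases, and Nr4a2 at chr3:43111936-43117406 with 7 exons and 2569 exonic bases. No exon of another annotated gene falls inside these spans. Reads were counted over exons, so the values are sums over all transcripts of a gene.

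The upstream sequences of Ctgf and Cplx3 are shown because these members had the most similar levels over the 64 samples. Both are the 250 bases before the gene's start in RefSeq (GRCr8, minus strand, written 5′ to 3′), at chr1:22624615-22624864 for Ctgf and chr8:66906201-66906450 for Cplx3. Capitals mark matches on either strand to 6 motifs, namely TATAAA (the TATA box), GGAATG (bound by TEAD factors), GGGCGG (GC box), the CCAAT box, TGACGTCA (cAMP response element) and AAAGGTCA (bound by NR4A receptors), none of which overlap here.
Ctgf: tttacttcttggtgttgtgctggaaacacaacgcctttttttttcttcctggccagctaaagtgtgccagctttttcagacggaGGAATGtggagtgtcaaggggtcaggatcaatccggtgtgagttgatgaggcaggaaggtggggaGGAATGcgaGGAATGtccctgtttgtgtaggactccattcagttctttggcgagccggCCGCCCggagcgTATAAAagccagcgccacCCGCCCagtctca
Cplx3: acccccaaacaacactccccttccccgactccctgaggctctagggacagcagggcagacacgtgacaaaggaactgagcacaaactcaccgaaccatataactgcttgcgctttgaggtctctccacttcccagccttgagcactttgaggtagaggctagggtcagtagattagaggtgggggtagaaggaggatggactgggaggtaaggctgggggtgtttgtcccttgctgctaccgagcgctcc

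The Ctgf window held GGAATG 3 times, from -166 to -161, from -101 to -96 and from -92 to -87 relative to the start, a TATA box from -31 to -26 and 2 GC boxes. The Cplx3 window held none of the 6 motifs. Of 33469 RefSeq windows of this length, 12.1% held the TEAD motif, 12.9% the TATA box, 34% the CCAAT box, 30.5% the GC box, 1.59% the cAMP response element and 1.24% the NR4A motif. A match is a description of the letters only.

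The libraries held between 3894334 and 11439143 counted read pairs, so that 1 count was worth 0.0895 to 0.253 CPM (counts scaled to library size). MEC LII P2 replicate 1 stood apart from its group. Its mean correlation with the other libraries of the group was 0.917, and its summed markers of ependyma came to 327 CPM against 10.2 to 17.7 CPM in the other 4. Its partner of the same number, MEC LDeep P2 replicate 1, held markers of meningeal fibroblasts at 1287 CPM in sum, against 69.5 to 107 CPM in the other 4 libraries of LDeep, a level otherwise seen in LII. These 2 libraries also had unusual member values, given below, so values without them are given beside the members' layer differences at P2 in the MEC. Of 11 markers of layer V and VI projection neurons, 9 were higher in LDeep in the MEC and 8 in the LEC. Of all genes, 19.9% and 21.2% were higher. Of 7 markers of entorhinal layer II neurons, 6 were lower in LDeep in the MEC and 3 in the LEC, against 21% and 17.4% of all genes. The summed layer II markers overlapped between the layers of the LEC at P9, with 1929 to 2265 CPM in LII and 1778 to 2002 CPM in LDeep, and at P45, with 2029 to 2932 and 2129 to 2814 CPM, so that this list did not separate the LEC layers at these ages.

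Levels are log2 CPM values to which a prior count of 2 was added, and differences are log2 fold changes. A gene is called when its adjusted p falls under 0.05 in edgeR's quasi-likelihood test over 12521 genes. Compared per kilobase of exon, Nr4a2 was by far the most abundant member. Its group means in LDeep ran from 56.5 to 233 CPM per kilobase. Ctgf followed with 6.04 to 33.3, Cplx3 with 2.82 to 25.9 and Nxph4 with 3.39 to 7.43 CPM per kilobase in LDeep.

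**Figure D1:**
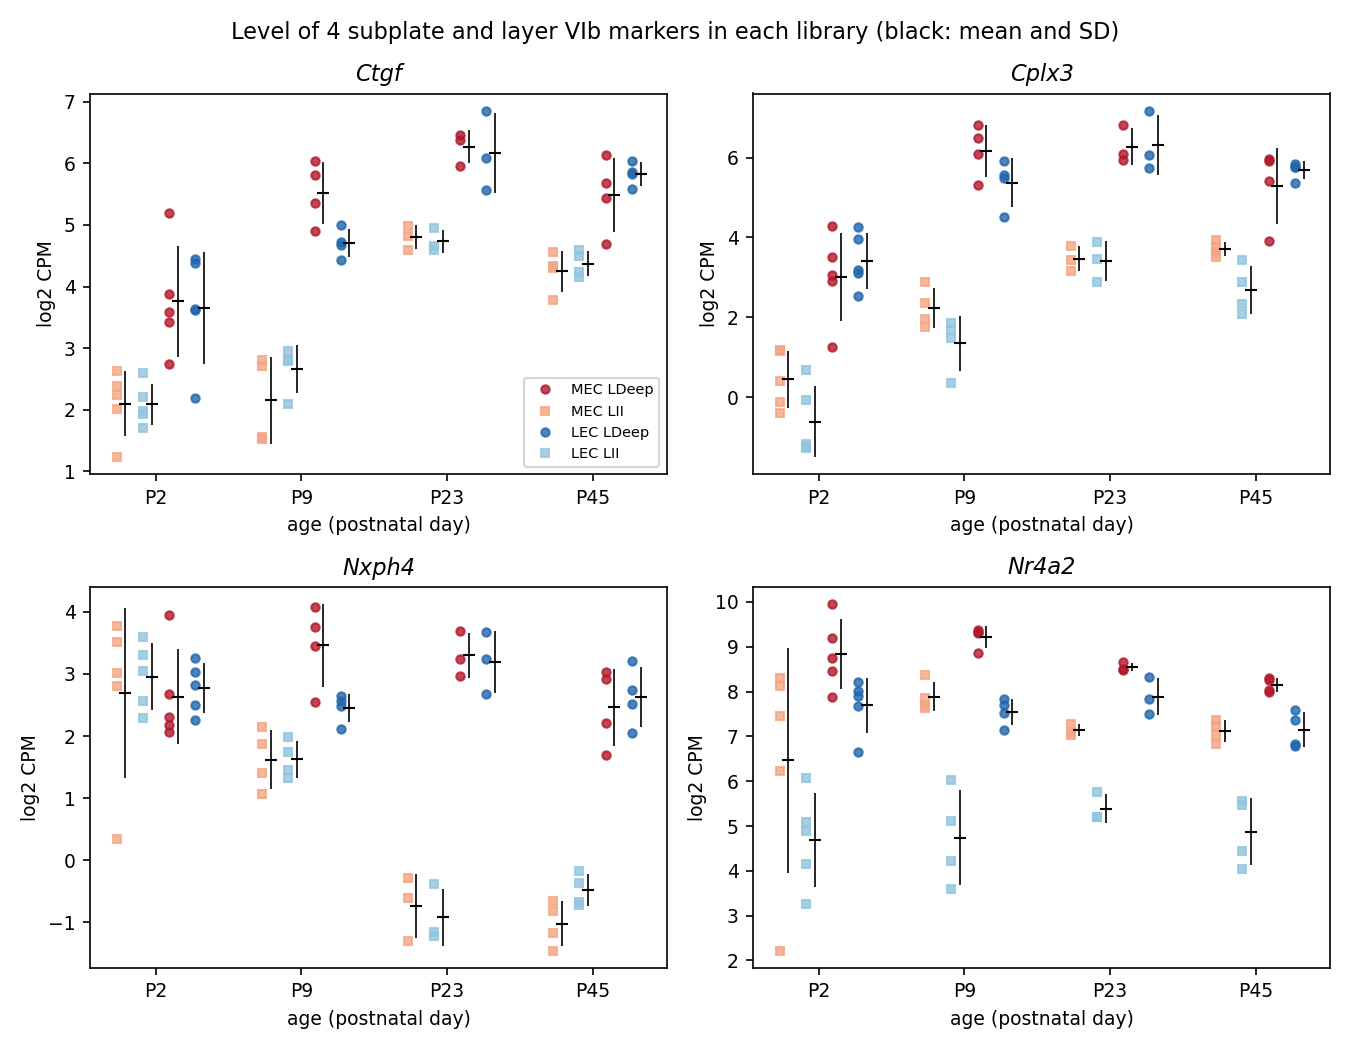
Level (log2 CPM) of each member in each of the 64 libraries against age in postnatal days, by region (red MEC, blue LEC) and layer (circles LDeep, squares LII), with the mean and SD of each group in black. Nxph4 in LII drops below 0 at P23 and P45 while it is 1.69 or higher in every LDeep library, and the lowest Nr4a2 value, 2.22, is MEC LII P2 replicate 1.

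All 4 members were higher in LDeep than in LII, in both regions, when the 4 ages were weighted equally. Cplx3 had the largest difference of the members, at 2.89 ± 0.23 (SE) in the MEC and 3.68 ± 0.26 in the LEC. Nxph4 differed by 2.72 ± 0.26 and 2.34 ± 0.27, Ctgf by 2.01 ± 0.18 and 1.72 ± 0.19, and Nr4a2 by 1.34 ± 0.26 and 2.51 ± 0.28 in the MEC and the LEC, respectively. The adjusted p ran from 5.36e-15 for Cplx3 to 3.13e-05 for Nr4a2 in the MEC, and from 1.12e-16 to 4.68e-10 in the LEC. Layer differences are common in these data: 40.8% of all genes were called in the MEC and 38.6% in the LEC, and 19.9% and 21.2% were called as higher in LDeep. The median difference over all genes was 0.03 in the MEC and 0.06 in the LEC. As these are bulk samples, a lower level in a layer can mean fewer cells of a type or less RNA per cell, which cannot be told apart.

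At single ages the layers did not overlap in most cases. Every LDeep library lay above every LII library of the same age and region in 7 of 8 such comparisons for Ctgf, 7 of 8 for Cplx3, 7 of 8 for Nr4a2 and 6 of 8 for Nxph4. Among all genes, 1.14%, 8.88%, 18.5% and 10.7% separated in this direction in the MEC, in order of age, and 5.39%, 11.6%, 16.7% and 5.69% in the LEC. The exceptions were Ctgf in the LEC at P2, Cplx3 in the MEC at P45, Nr4a2 in the MEC at P2, and Nxph4 at P2 in both regions.

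Ctgf, the secreted CCN protein, was present at low level in LII during the first days and was higher in LDeep at each age. At P2 in the MEC, the log2 CPM values were 2.62, 2.24, 1.23, 2.38 and 2.01 in LII and 2.74, 3.88, 3.43, 5.19 and 3.58 in LDeep. The lowest LDeep value is that of replicate 1, the library with high meningeal markers, and it lies just above the highest LII value. At P9 in the MEC, LII held 2.71, 2.81, 1.52 and 1.56, and LDeep 6.03, 5.36, 4.90 and 5.80. The gap between the layers was widest at this age. In the LEC at P2, LII held 1.71, 2.60, 2.20, 1.94 and 1.99 and LDeep 3.62, 4.44, 2.20, 4.38 and 3.63. A single LDeep library, replicate 3, fell within the LII range there.

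The fitted Ctgf layer difference in the MEC, from the youngest to the oldest age, was 1.87 ± 0.35, 3.37 ± 0.39, 1.48 ± 0.39 and 1.31 ± 0.34. In the LEC it was 1.81 ± 0.37, 2.07 ± 0.38, 1.53 ± 0.39 and 1.47 ± 0.34. All 8 were called. Of all genes, 9.23%, 17.7%, 16.5% and 14.8% were called for layer in the MEC, from the youngest to the oldest age, and 12.1%, 15.5%, 11.3% and 13.3% in the LEC. The MEC difference at P2 rose to 2.24 without both libraries numbered 1. It was 1.83 with an adjusted p of 0.0573 when only the P2 samples were fitted.

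Over age, Ctgf rose in both layers. From the younger (P2 and P9) to the older samples (P23 and P45) it rose by 1.17 ± 0.24 in LDeep of the MEC, 1.78 ± 0.24 in LDeep of the LEC, 2.39 ± 0.27 in LII of the MEC and 2.22 ± 0.28 in LII of the LEC. The adjusted p was 2.54e-05 or lower in each. Age moved most genes, and 66.2%, 64.5%, 66.5% and 62.7% of all genes were called in these 4 comparisons. In LDeep of the MEC the step from P2 to P9 was 1.63 ± 0.32 (adjusted p = 4.98e-05) and that from P9 to P23 was 0.70 ± 0.35 (adjusted p = 0.104). In LII of the MEC these steps were 0.13 ± 0.40 (adjusted p = 0.826) and 2.59 ± 0.40 (adjusted p = 5.91e-07). In the LEC the step from P9 to P23 was the larger in both layers, with 0.90 ± 0.32 and then 1.55 ± 0.35 in LDeep and 0.64 ± 0.41 and then 2.08 ± 0.40 in LII. Whether the steps differ between layers was not tested. From P2 to P9, 43.8% of all genes were called in LDeep of the MEC, 33.4% in LDeep of the LEC, 35.4% in LII of the MEC and 27.9% in LII of the LEC. From P9 to P23 the shares were 38.7%, 39.3%, 38.5% and 35%.

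At P23 in the MEC, Ctgf measured 4.60, 4.98 and 4.82 in LII and 6.38, 5.96 and 6.46 in LDeep. In the MEC the Ctgf layer difference was smaller at P23 and P45 together than at P2 and P9 together. It was largest at P9, at 3.37. The P2 value, 1.87, lay nearer to the later values of 1.48 and 1.31. The change was -1.22 ± 0.36 (adjusted p = 0.0321), where 5.26% of all genes changed their layer difference with age. This call was lost in 9 of the fits that left out a library, with values from -1.17 to -0.91, and in a fit of the MEC samples alone, with an adjusted p of 0.0859. Without both libraries numbered 1 at P2 it was -1.41 (adjusted p = 0.00844). In the LEC the change was -0.44 ± 0.37 and did not pass (adjusted p = 0.715), and whether the regions differ in this change was not tested.

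Nxph4, the neurexin ligand, was the member whose layer pattern changed most with age. At P2 it was measured at like levels in both layers. In the MEC at P2, LII held 0.34, 2.81, 3.78, 3.01 and 3.51 and LDeep 2.31, 2.68, 2.18, 3.94 and 2.06. The value of 0.34 belongs to MEC LII P2 replicate 1, and the other 4 LII libraries lay within or near the LDeep range. In the LEC at P2, LII held 3.30, 3.05, 3.59, 2.29 and 2.56 and LDeep 2.50, 3.03, 2.83, 3.25 and 2.26, so that the layers overlapped almost fully.

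By P23, Nxph4 counts had nearly run out in LII. The 3 MEC LII libraries held 1, 4 and 3 counts, and the 3 LEC LII libraries 3, 1 and 1 counts. At P45 the MEC LII libraries held 1, 1, 3 and 2 counts and the LEC LII libraries 2, 3, 2 and 4 counts. LDeep kept its level, with 66, 66 and 111 counts in the MEC and 45, 64 and 89 counts in the LEC at P23. On the log2 scale, LDeep of the MEC held 3.24, 2.97 and 3.69 at P23 and 2.92, 2.21, 3.02 and 1.69 at P45, above each LII library.

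From the summed counts, Nxph4 in LDeep was 27.3 times its level in LII in the MEC at P23 (95% interval 13.6 to 63.9, exact, for counting error only) and 32.8 times in the LEC (13.8 to 102). At P45 the ratios were 24.7 (11.7 to 62.2) and 13.3 (7.27 to 27.2). At P2 they were 0.724 (0.609 to 0.860) in the MEC and 0.865 (0.722 to 1.04) in the LEC. The fitted layer differences followed the same course, with -0.29 ± 0.36 (adjusted p = 0.643), 1.96 ± 0.42, 4.70 ± 0.65 and 4.51 ± 0.61 at the 4 ages in the MEC, and -0.22 ± 0.36 (adjusted p = 0.77), 0.86 ± 0.43 (adjusted p = 0.18), 4.96 ± 0.70 and 3.76 ± 0.58 in the LEC. The differences without a p here were called, at 0.000751 or lower. Without both MEC libraries numbered 1, the Nxph4 difference at P2 in the MEC was -0.50 (adjusted p = 0.326).

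The layer difference of Nxph4 grew by 3.77 ± 0.54 from the younger to the older ages in the MEC (adjusted p = 2.76e-06) and by 4.04 ± 0.55 in the LEC (adjusted p = 2.07e-06). Of all genes, 5.26% changed in this way in the MEC and 2.23% in the LEC. The change lay in LII, where Nxph4 fell by 4.00 on the log2 scale in the MEC (SE 0.45) and fell by 3.71 in the LEC (SE 0.46), with adjusted p of 2.61e-11 and 6.25e-10. The fall was spread over both early intervals, with -1.44 ± 0.41 from P2 to P9 and -2.98 ± 0.67 from P9 to P23 in the MEC, and -1.45 ± 0.42 and -3.28 ± 0.74 in the LEC. With the replicate number as a block in limma voom with duplicateCorrelation, the first of these steps did not pass, at -1.05 in the MEC (adjusted p = 0.108) and -1.34 in the LEC (adjusted p = 0.0599). In LDeep the change with age was -0.23 ± 0.29 (95% interval -0.81 to 0.34) in the MEC and 0.32 ± 0.29 (-0.26 to 0.91) in the LEC, and neither passed (adjusted p = 0.486 and 0.328). The age difference in LII of the MEC was -4.15 without MEC LII P2 replicate 1.

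**Figure D2:**
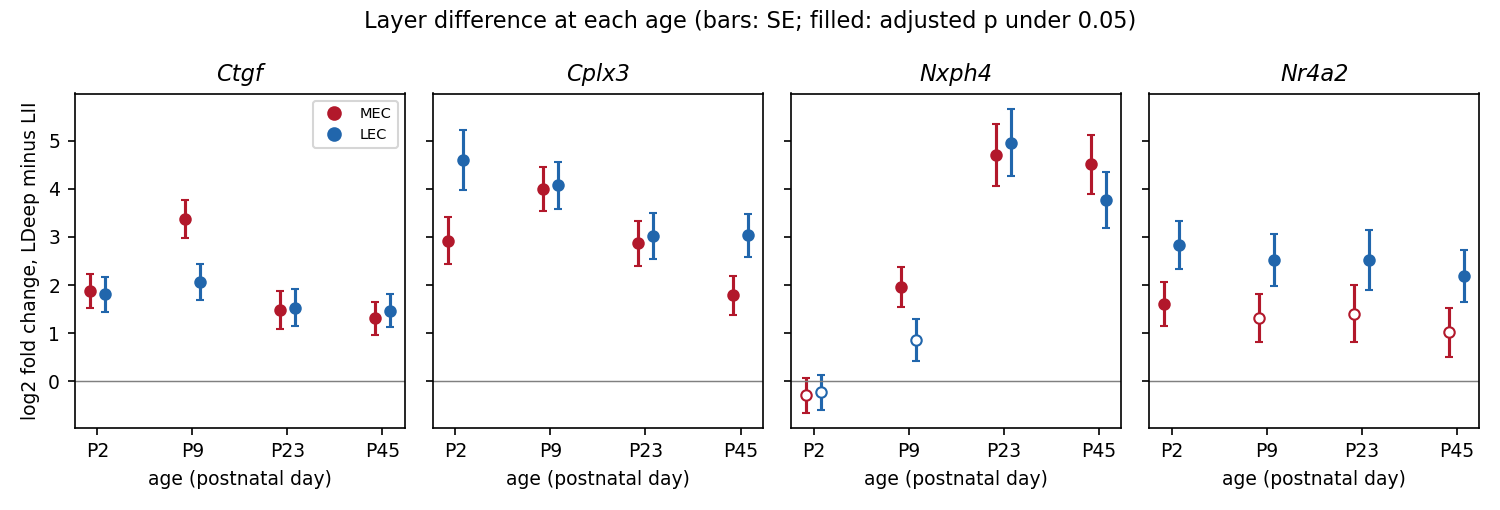
Log2 fold change of LDeep minus LII at each age in postnatal days, for each member in the MEC (red) and the LEC (blue), with SE bars and filled points where the adjusted p is under 0.05. Nxph4 goes from -0.29 and -0.22 at P2 to 4.70 and 4.96 at P23, while Ctgf and Cplx3 are at 1.31 or higher at each age. The layer difference of Nr4a2 is larger in the LEC than in the MEC at each age. With ages weighted equally, this difference between regions did not pass (adjusted p = 0.105).

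Cplx3, the presynaptic member, was near the limit of detection in LII at P2 and clearly present in LDeep. In the LEC at P2 the LII libraries held 1, 6, 4, 1 and 1 counts and the LDeep libraries 79, 137, 46, 118 and 54. The ratio of the summed counts was 25 (95% interval 14.5 to 47.4, for counting error only). In the MEC at P2, LII held -0.38, 0.42, 1.17, 1.15 and -0.11 on the log2 scale and LDeep 1.27, 3.51, 3.06, 4.28 and 2.92. As for Ctgf, the lowest LDeep value was that of replicate 1.

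At P9 in the MEC, Cplx3 measured 1.96, 2.90, 2.35 and 1.75 in LII and 6.81, 6.48, 6.08 and 5.30 in LDeep. The layers stood furthest apart at this age in the MEC, and the overlap came only at P45, when LDeep held 5.96, 5.41, 5.91 and 3.92 and LII 3.75, 3.94, 3.64 and 3.52. A single LDeep library, replicate 4, lay inside the LII range there. The layer differences in the MEC were 2.92 ± 0.49, 3.99 ± 0.45, 2.86 ± 0.48 and 1.79 ± 0.40 from P2 to P45, and those in the LEC 4.60 ± 0.62, 4.07 ± 0.48, 3.02 ± 0.49 and 3.03 ± 0.44. All 8 were called, with adjusted p of 0.00107 or lower, and the Cplx3 difference at P2 in the MEC was 2.95 without both libraries numbered 1. Their change with age was -1.13 ± 0.45 in the MEC and -1.31 ± 0.54 in the LEC and did not pass (adjusted p = 0.141 and 0.262). With the replicate number as an additive block in edgeR both passed, at -1.14 (adjusted p = 0.0184) and -1.397 (adjusted p = 0.0337).

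Cplx3 rose with age in both layers, by 1.17 ± 0.28 and 1.60 ± 0.28 in LDeep and by 2.30 ± 0.35 and 2.90 ± 0.44 in LII of the MEC and the LEC, respectively. The adjusted p was 0.00022 or lower in each. Most of the LDeep rise came between P2 and P9, with 3.05 ± 0.39 in the MEC (adjusted p = 9.32e-09) and 1.94 ± 0.38 in the LEC (adjusted p = 5.61e-05). Leaving out both MEC libraries numbered 1 at P2 changed the MEC step to 2.80. From P23 to P45 no member passed in any of the 4 combinations of region and layer, where 0.224% and 0.128% of all genes were called in LDeep and 0.104% and 0.224% in LII of the MEC and the LEC. The fitted steps from P23 to P45 in LDeep were negative for each of the 4 members, from -0.39 for Nr4a2 to -0.84 for Cplx3 in the MEC and from -0.43 for Ctgf to -0.77 for Cplx3 in the LEC.

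Nr4a2, the transcription factor, was the only member called between regions with ages weighted equally in the fit of all 64 libraries. Cplx3 in LII lay close to the threshold, at 0.83 (adjusted p = 0.0542), and passed under some other settings given below. At P9, LII of the MEC held 7.85, 7.64, 7.69 and 8.36 and LII of the LEC 4.23, 5.12, 6.03 and 3.59. LDeep held 9.34, 9.30, 8.85 and 9.36 in the MEC and 7.69, 7.51, 7.83 and 7.15 in the LEC. The MEC libraries lay above the LEC libraries in both layers, and LII of the MEC reached the level of LDeep of the LEC.

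At P23, LII held 7.11, 7.02 and 7.28 in the MEC and 5.21, 5.76 and 5.20 in the LEC, and LDeep 8.48, 8.50 and 8.65 against 7.50, 7.83 and 8.32. At P45, LII held 7.04, 7.24, 6.83 and 7.38 in the MEC and 4.04, 5.57, 5.46 and 4.44 in the LEC. The regions did not overlap at P9, P23 and P45 in either layer. Among all genes, 5.61%, 14.6% and 6.54% separated as higher in the MEC in LII at these ages, and 2.92%, 8.44% and 3.95% in LDeep.

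With ages weighted equally, Nr4a2 was higher in the MEC than in the LEC by 2.30 ± 0.28 in LII (adjusted p = 7.97e-09) and by 1.12 ± 0.26 in LDeep (adjusted p = 0.00274). Of all genes, 12.6% were called between regions in LII and 5.78% in LDeep. At single ages in LII the difference was 2.46 ± 0.49, 2.86 ± 0.54, 1.73 ± 0.61 and 2.13 ± 0.54 in order of age. The P23 value did not pass (adjusted p = 0.135), the others being called at 0.00931 or lower. The P2 value was 2.76 without both libraries numbered 1, and it did not pass with limma voom, at 1.85 (adjusted p = 0.0725), or in a fit of the P2 samples alone, at 2.43 (adjusted p = 0.123). The P45 value was 1.96 without LEC LII P45 replicate 4 (adjusted p = 0.0574). The share of all genes called in LII was 5.85%, 1.64%, 2.2% and 4.52%. In LDeep no single age passed, with 1.23, 1.66, 0.62 and 0.97 from P2 to P45 and adjusted p between 0.0892 and 1, where 0.327%, 1.88%, 0.711% and 1.69% of all genes were called. The P9 value in LDeep passed, at 1.66 (adjusted p = 0.00863), when MEC LII P2 replicate 1 was left out, as did the P23 value in LII, at 1.73 (adjusted p = 0.0276). That library is in neither comparison, but in the fit all groups share the estimate of a gene's spread. Both also passed in fits of a single age, at 1.68 (adjusted p = 0.00568) and 1.73 (adjusted p = 0.00013).

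MEC LII P2 replicate 1 held 44 counts of Nr4a2, a log2 CPM of 2.22, against 6.23 to 8.30 in the other 4 libraries of its group. It was far below the rest of its group. With it, the Nr4a2 layer difference in the MEC was 1.61 ± 0.46, 1.31 ± 0.51, 1.404 ± 0.59 and 1.02 ± 0.51 in order of age, with adjusted p of 0.0178, 0.0622, 0.0977 and 0.196. Without it, the difference was 1.29 at P2 (adjusted p = 0.0375; 1.23 without both libraries numbered 1), and P9 and P23 passed at 1.30 (0.0143) and 1.403 (0.0241), whereas P45 stayed at 1.01 (0.0717). The comparisons at P9, P23 and P45 do not hold this library and only share the estimate of the spread with it. In fits of a single age, P2 did not pass, at 1.56 (adjusted p = 0.216), and the later ages did, at 1.27 (0.00909), 1.39 (5.07e-05) and 1.03 (0.0124). In the LEC the layer difference was 2.83 ± 0.49, 2.51 ± 0.54, 2.52 ± 0.62 and 2.18 ± 0.54 and passed at each age (adjusted p = 0.00425 or lower).

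The layer difference of Nr4a2 was smaller in the MEC than in the LEC by 1.17 log2 units, a difference of -1.17 ± 0.37 that did not pass with all 64 libraries (adjusted p = 0.105) and passed at -1.24 without MEC LII P2 replicate 1 (adjusted p = 0.0111). Of all genes, 1.25% were called for this difference with all libraries. For Ctgf it was 0.29 ± 0.26, for Nxph4 0.38 ± 0.43 and for Cplx3 -0.79 ± 0.36, and none of them passed (adjusted p = 0.68, 0.769 and 0.352). The region difference in LDeep did not change with age beyond the threshold for any member, where 0.575% of all genes were called.

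Nr4a2 did not pass for age in either layer of either region. The change was -0.77 ± 0.36 (adjusted p = 0.0576) and -0.12 ± 0.36 in LDeep and -0.52 ± 0.37 and 0.20 ± 0.38 in LII of the MEC and the LEC. Without MEC LII P2 replicate 1, Nr4a2 fell with age in both layers of the MEC, with -0.77 in LDeep (adjusted p = 0.0149) and -0.68 in LII (adjusted p = 0.0359). The LDeep comparison does not hold this library and only shares the estimate of the spread with it.

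The other 3 members did not pass between regions in LDeep, where the differences were 0.19 for Ctgf (95% interval -0.15 to 0.53), 0.04 for Cplx3 (-0.35 to 0.44) and 0.26 for Nxph4 (-0.14 to 0.67). In LII, Ctgf differed by -0.11 (-0.50 to 0.29) and Nxph4 by -0.12 (-0.86 to 0.62). Cplx3 was at 0.83 ± 0.30 in LII (adjusted p = 0.0542) and passed with the replicate block, at 0.86 (adjusted p = 0.00369), and its MEC and LEC libraries did not overlap at P45, with 3.75, 3.94, 3.64 and 3.52 in the MEC and 3.44, 2.33, 2.89 and 2.07 in the LEC. At P9 in LDeep, Ctgf, Nxph4 and Cplx3 were each higher in the MEC on average, by 0.86 ± 0.33, 1.12 ± 0.40 and 0.81 ± 0.38, and none of these passed (adjusted p = 0.268, 0.187 and 0.498). In a fit of the P9 samples alone, Nxph4 passed at 1.14 (adjusted p = 0.0324).

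**Figure D3:**
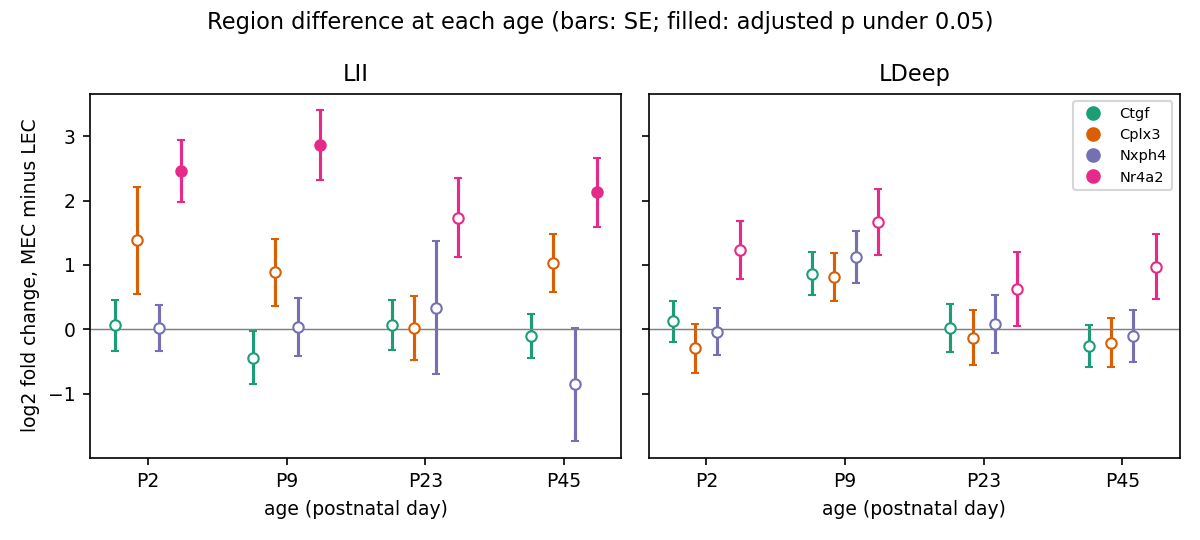
Log2 fold change of MEC minus LEC at each age in postnatal days in LII (left) and LDeep (right) for the 4 members, with SE bars and filled points where the adjusted p is under 0.05. Nr4a2 lies between 1.73 and 2.86 in LII and between 0.62 and 1.66 in LDeep, and at each age the other members lie closer to 0. Of these, Cplx3 reaches 1.38 in LII at P2 and Nxph4 1.12 in LDeep at P9.

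Ordered by group mean, Ctgf, Cplx3 and Nr4a2 were each highest in an LDeep group and lowest in LII of the LEC at P2. For Ctgf the order ran from 6.27 (LDeep of the MEC at P23) to 2.09, for Cplx3 from 6.32 (LDeep of the LEC at P23) to -0.61, and for Nr4a2 from 9.21 (LDeep of the MEC at P9) to 4.69. Nxph4 ran from 3.46 (LDeep of the MEC at P9) to -1.02 (LII of the MEC at P45). Of the 15 steps between neighbours in these orders, only 3 for Ctgf, 4 for Cplx3, 2 for Nxph4 and 2 for Nr4a2 were larger than the SD of both neighbours. The clearest were the step of 2.11 between LII at P9 and LII at the older ages for Nxph4 and, for Cplx3, the step of 1.59 below the 6 LDeep groups at P9 and later.

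Across the 64 libraries, log2 CPM of Ctgf and Cplx3 had a Pearson r of 0.90, that of Cplx3 and Nr4a2 0.62, and that of Ctgf and Nxph4 0.04. After the group means were subtracted, the 32 LDeep libraries still gave r = 0.80 for Ctgf and Cplx3, 0.73 for Ctgf and Nxph4, 0.66 for Ctgf and Nr4a2 and 0.60 for Cplx3 and Nxph4. Nxph4 and Nr4a2 gave 0.47 and Cplx3 and Nr4a2 0.42. The 32 LII libraries gave 0.12, -0.41, -0.08, 0.31, 0.67 and 0.42 for the same pairs in this order. These are descriptions over libraries that share the depth and dissection of each sample. The r of 0.67 for Nxph4 and Nr4a2 in LII includes MEC LII P2 replicate 1, which lay far below its group mean for both genes. It held 0.34 against a mean of 2.69 for Nxph4 and 2.22 against 6.47 for Nr4a2. The r without this library was not tested.

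The genes most like each member were those with the highest Pearson r over the 64 libraries. For Ctgf they were Brinp2 (r = 0.94), Prickle1 (0.92) and Rasgrp1 (0.91), and for Cplx3 Brinp2 (0.89), Tmem178a (0.88) and Sema3e (0.88). For Nxph4 they were Thsd7b (0.85), Eepd1 (0.83) and Slc35f1 (0.82), and for Nr4a2 Il1rapl2 (0.86), Galnt14 (0.85) and Chrna5 (0.84), a nicotinic receptor subunit. Within groups, Thsd7b kept an r of 0.73 with Nxph4 and Il1rapl2 0.75 with Nr4a2, whereas Slc35f1 was at -0.11 with Nxph4, so that its likeness lay in the group means.

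Close relatives of the members differed in their layer pattern. Of the complexins, Cplx1 and Cplx2, the main forms at forebrain synapses, did not pass for layer with ages weighted equally. They differed by -0.08 and 0.03 in the MEC and by 0.06 and -0.20 in the LEC. At P23 in the MEC, the summed CPM of Cplx1, Cplx2 and Cplx4 was 1017 to 1258 in LII and 737 to 853 in LDeep. At P45 it was 1089 to 1295 and 903 to 1017, and at P2 and P9 the layers overlapped. Both Cplx1 and Cplx2 rose with age in LDeep, by 1.46 and 0.98 in the MEC. Of the NR4A receptors, Nr4a1 did not pass for layer (0.18 in the MEC and 0.12 in the LEC) and rose with age in LDeep by 2.11 ± 0.23 and 3.03 ± 0.24. Nr4a3 was higher in LDeep in the LEC, by 1.08 ± 0.18, and was at 0.04 ± 0.17 in the MEC, where it fell with age in LDeep (-0.65 ± 0.24). Nr4a3 was also higher in the MEC than in the LEC in LII, by 1.07 ± 0.18 (adjusted p = 1.18e-05).

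Among the CCN genes, Wisp2 was lower in LDeep by -2.85 ± 0.32 in the MEC and -3.05 ± 0.32 in the LEC, the opposite of Ctgf. Wisp1 was lower in LDeep in the LEC (-1.34 ± 0.47) and at -0.92 in the MEC. Nov was higher in LDeep in the MEC by 0.52 ± 0.19 and at 0.17 in the LEC, and it rose with age in LDeep by 1.47 and 1.68. Cyr61 did not pass for layer in either region. Of the neurexophilins, Nxph3, itself used as a subplate and deep layer marker, was higher in LDeep by 3.32 ± 0.21 and 3.33 ± 0.22, and Nxph1 by 0.29 ± 0.07 and 0.61 ± 0.07. Of the copper monooxygenases, the enzyme family of the marker not analysed here, Dbh was higher in LDeep in the MEC by 1.28 ± 0.45 and Pam did not pass for layer.

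A panel of 24 other subplate and layer VIb genes had 21 in the tables and 20 tested. In the MEC, 9 were higher in LDeep and 6 lower, with a median of 0.16, and in the LEC 9 were higher and 4 lower, with a median of 0.34. Among all genes, 19.9% were called as higher in LDeep and 21% as lower in the MEC, and 21.2% and 17.4% in the LEC. Beside Nxph3, those higher in LDeep included Rprm, a cell cycle inhibitor, by 3.84 ± 0.24 and 2.18 ± 0.21, Zfpm2, a transcriptional cofactor, by 1.42 ± 0.25 and 0.94 ± 0.26, and Drd1, the D1 dopamine receptor, by 0.94 ± 0.17 and 1.76 ± 0.18. The genes lower in LDeep were led by Slco2a1, a prostaglandin transporter that endothelial and meningeal cells also make (-2.99 ± 0.31 and -3.58 ± 0.34), Svil (-1.59 and -1.74) and Lpar1, a lysophosphatidic acid receptor that oligodendrocytes and meningeal cells also make (-0.98 and -2.30). The genes of the panel thus lay in both directions.

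**Figure D4:**
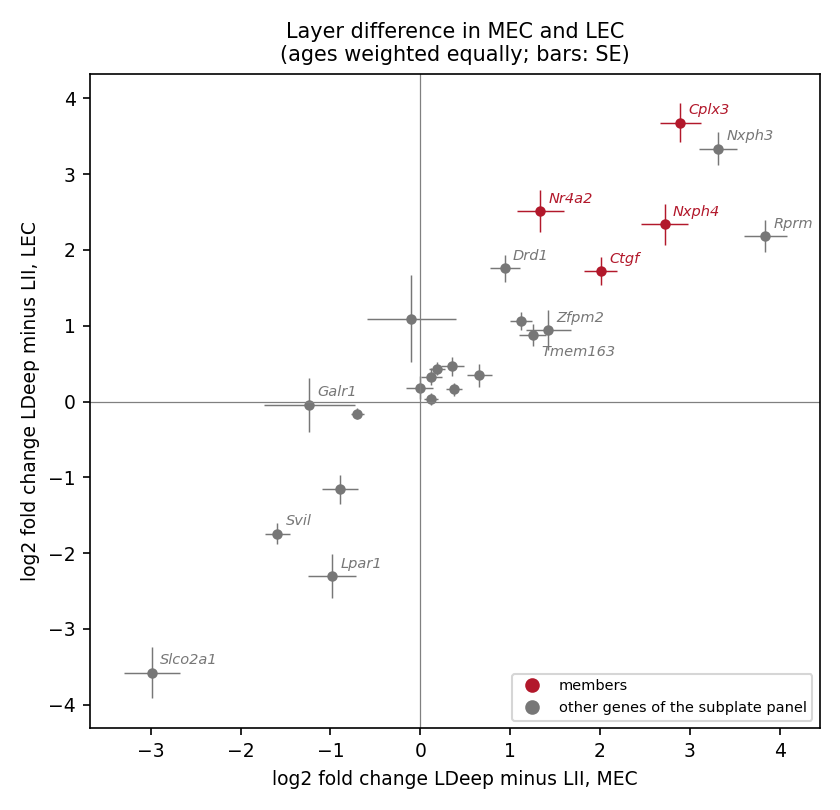
Log2 fold change of LDeep minus LII with ages weighted equally, in the MEC (horizontal) and the LEC (vertical), for the 4 members (red) and the 20 tested genes of the subplate panel (grey), with SE bars. The members lie with Nxph3 and Rprm at the upper right, from 1.34 to 2.89 in the MEC, and Slco2a1, Svil and Lpar1 lie at the lower left.

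Markers of other cell types moved with layer. Of all genes, 21% in the MEC and 17.4% in the LEC were called as lower in LDeep, against which the counts of lower genes below are to be read. Of 14 markers of meningeal fibroblasts, 13 were lower in LDeep in each region, with medians of -3.12 and -4.62, led by Fmod (-3.56 ± 0.41) in the MEC and Ogn (-5.80 ± 0.74) in the LEC. Dcn, made by fibroblasts and by some deep neurons, was higher in LDeep in the MEC by 0.93 ± 0.25. The summed level of the list at P9 was 510 to 2031 CPM in LII and 131 to 410 CPM in LDeep of the MEC, and 1040 to 1694 against 69.3 to 134 CPM in the LEC. At P2 in the MEC the layers overlapped, with 33.9 to 1633 CPM in LII and 69.5 to 1287 CPM in LDeep. The medians were 901 and 95.1 CPM, and the 1287 CPM was that of MEC LDeep P2 replicate 1, described above. At most 1 gene of the list was at 0 in every library of a group. Of 10 endothelial and mural markers, 10 were lower in LDeep in the MEC and 9 in the LEC, led by Cdh5 (-1.69 ± 0.21 and -2.27 ± 0.22). Ctgf, which these cells also make, was higher in LDeep, and their part in its layer difference was not tested.

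Of 9 tested targets of YAP/TEAD and SRF, which include genes of contractile vascular cells, 7 were lower in LDeep in each region, led by Acta2 (-2.62 ± 0.41 and -3.45 ± 0.44) and Tagln (-2.31 ± 0.27 and -3.08 ± 0.29), and none was higher. Of 7 astrocyte markers, 6 were lower in LDeep in the MEC and 5 in the LEC, led by Gfap (-1.19 and -1.32). Of 11 oligodendrocyte and myelin markers, 8 were higher in LDeep in the MEC and 7 in the LEC. Mbp was at 1.11 ± 0.20 and 0.82 ± 0.20. With age in LDeep, 10 and 9 of these markers rose. Among all genes, 19.9% and 21.2% were called as higher in LDeep, and 32.2% and 32.8% rose with age in LDeep. The part of these cell types in the member differences was not tested.

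The deep projection neuron markers were led by Fezf2, a determinant of subcerebral neurons (3.24 ± 0.23 and 3.10 ± 0.23), Tbr1 (2.17 ± 0.22 in the MEC) and Tle4 (1.78 ± 0.12 and 1.56 ± 0.12). Their summed level separated the layers in each region and at each age, for instance 1258 to 2119 CPM in LDeep against 440 to 660 CPM in LII of the MEC at P9. With age in LDeep, 4 of the 11 fell in the MEC and 3 in the LEC, led by Ntsr1 (-2.91 ± 0.32 and -2.93 ± 0.33), and 1 rose in each, where 34.1% and 31.7% of all genes fell. Of 6 pan-neuronal markers, 2 in the MEC and 5 in the LEC were higher in LDeep, with medians of 0.18 and 0.31. Among all genes, 19.9% and 21.2% were called as higher in LDeep.

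Of 6 claustrum and endopiriform genes, a tissue that also makes Nr4a2, 3 were higher in LDeep and 2 lower in the MEC. In the LEC, 3 were higher and none lower. Among all genes, 19.9% were called as higher in LDeep and 21% as lower in the MEC, and 21.2% and 17.4% in the LEC. Between regions in LDeep, 4 of the 6 were lower in the MEC and 1 higher, where 2.97% and 2.81% of all genes were called. Nr4a2 was higher in the MEC. The part of this tissue in the Nr4a2 difference was not tested. The summed level of the list in LDeep at P9 was 1031 to 1175 CPM in the MEC and 1191 to 1404 CPM in the LEC. Of 4 tested ependymal genes, 2 were lower in LDeep in the MEC and 1 in the LEC, led by Spag16 (-2.09 ± 0.25), and the library MEC LII P2 replicate 1 enters the MEC value.

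Activity-induced early genes, to which Nr4a1 and Nr4a3 belong, rose with age in LDeep for 13 of 16 in both regions, led by Fosb (4.01 ± 0.42 and 3.96 ± 0.37) and Arc (3.58 ± 0.24 and 3.54 ± 0.24), with medians of 2.02 and 1.87. Of all genes, 32.2% and 32.8% rose, with medians of -0.03 and 0.02. Fosl2 fell, by -0.69 ± 0.24 and -0.67 ± 0.25. Nr4a2, at -0.77 and -0.12, did not rise with this list. For layer, 3 of the 16 were higher in LDeep in the MEC and 3 in the LEC, and 1 was lower in the LEC, near the 19.9% and 21.2% of all genes called as higher.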

How the data were processed

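Total RNA of 64 samples was depleted of ribosomal RNA and sequenced with a stranded kit. Per the labels and the submitters' processing notes, the authors used bcl2fastq 1.8.4, Trimmomatic 0.33, STAR 2.4.0 on Rn6 and featureCounts of Subread 1.4.6-p1, and deposited raw counts of read pairs per gene for each sample. Counting used strand, and pairs over several genes counted for each. The paper describes the MEC samples only. Counts were used as deposited.

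The table of all genes was fitted once with edgeR 4.0.16 (R 4.3.3), with TMM library sizes, the default filter on low counts by group (12521 genes), the 16 groups as factor and the quasi-likelihood test, with Benjamini-Hochberg adjustment over all genes. All 4 members passed the filter. A fold change is LDeep minus LII, MEC minus LEC or older minus younger. Standard errors are the fold change over the root of F, and 95% intervals use 48 residual degrees of freedom. The members and gene lists were chosen with earlier results of these data known. Named genes are the members, their 3 most similar genes, their families and up to 3 genes per direction of each list. Some genes of these lists are not reported here. Region differences in LII at single ages, age steps in LII and the fits without both MEC libraries numbered 1 at P2 were added after the values were seen. The fit was tested on simulated counts.

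Alternatives were DESeq2 1.42.0, limma 3.58.1 voom with quantile normalization, RLE size factors, other count filters, fits of a region or an age alone, a replicate block, and leaving out each library. Samples of the same replicate number and age had deviations from their group means with a mean correlation of 0.134 over 96 pairs (55 of them over 0.1), against -0.043 for other numbers. The study does not say whether these numbers stand for animals. In none of 100 pairs of replicates did the counts agree within sampling noise (chi-square per gene 3.08 or more). Sequences came from RefSeq (GRCr8), where 3 of the 4 members matched. Intervals of count ratios cover counting error only.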

Additional observations from a re-analysis of the deposited data

Results flagged for a closer look

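Of 48 groups of 4 or 5 libraries examined for the members, 3 held a library far from the others, and chance flags about 1 in 20 groups. Cplx3 in LEC LDeep P45 replicate 4 was the lowest of its group, at a log2 CPM of 5.35 against 5.77 to 5.84 in the other 3. Nxph4 in MEC LII P2 replicate 1 was at 0.340, against 2.81 to 3.78 in the other 4, in the library that also stood apart over all genes. Nr4a2 in MEC LDeep P9 replicate 3 was at 8.85, against 9.30 to 9.36.

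Of 16 tests of whether a member's difference changed between ages or regions, 3 passed. Among all genes, 5.26% in the MEC and 2.23% in the LEC changed their layer difference with age. Between regions, 1.25% differed in layer difference, and 0.575% changed their LDeep region difference with age. The layer difference of Ctgf was smaller at the older ages in the MEC, by -1.22 log2 units (adjusted p = 0.0321). This call was lost in several fits that left out a library and in a fit of the MEC alone (adjusted p = 0.0859). The layer difference of Nxph4 was larger at the older ages, by 3.77 in the MEC (adjusted p = 2.76e-06) and by 4.04 in the LEC (adjusted p = 2.07e-06).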

How the results depend on the processing

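No member's called difference changed direction under any alternative. The layer differences with ages weighted equally kept their call for the 4 members in both regions under each setting run. Among the comparisons with ages weighted equally and the tests of change, 359 of the values under other settings stayed on the same side of the threshold, 8 gained a call and 1 lost it. Of those that leave out a library, 1417 stayed, 10 gained and 9 lost a call. At single ages and for age steps, other settings left 897 on the same side, with 16 gained and 15 lost, and leaving out a library left 956, with 7 gained and 17 lost. Cplx3 in LII between regions, at 0.83 (adjusted p = 0.0542), passed with DESeq2 at 0.82, with the replicate block at 0.86 and with both MEC libraries numbered 1 at P2 left out at 0.88, and ran from 0.753 to 0.989 over the fits without 1 library. The change of the Ctgf layer difference with age in the MEC was -1.23 and did not pass in a fit of the region alone, and ran from -1.37 to -0.91 without 1 library. With both MEC libraries numbered 1 at P2 left out, Nr4a2 passed for the difference of the layer difference between regions at -1.26, for age in LDeep of the MEC at -0.74 and for age in LII of the MEC at -0.68. Over the fits without 1 library these ran from -1.32 to -1.09, from -0.864 to -0.578 and from -0.681 to -0.349. The cause was not tested.

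At single ages, the Ctgf layer difference at P23 in the LEC was 1.08 and lost its call without LEC LDeep P23 replicate 3, and that of Nr4a2 at P2 in the MEC was 1.22 without MEC LDeep P2 replicate 4 (adjusted p = 0.108). The region difference of Nr4a2 in LII at P45 was 1.96 without LEC LII P45 replicate 4 (adjusted p = 0.0574). In a fit of the P2 samples alone, Nr4a2 did not pass for layer in the MEC, at 1.56, or for region in LII, at 2.43. With the replicate block as an additive term in edgeR, Cplx3 gained the change of its layer difference with age, at -1.14 in the MEC and -1.397 in the LEC, the region difference in LII, at 0.86, and that at P45, at 1.05. With the block in limma voom with duplicateCorrelation, Nxph4 lost its step from P2 to P9 in LII, at -1.05 and -1.34, Cplx3 lost that from P9 to P23 in LII of the MEC, at 1.21, and that from P2 to P9 in LII of the LEC, at 2.59, and Ctgf gained that from P9 to P23 in LDeep of the MEC, at 0.75, and Nr4a2 that from P2 to P9 in LII of the MEC, at 1.46. The block changed no other call of a member. Low counts limit Nxph4 in LII at P23 and P45 and Cplx3 in LII at P2. Among all genes, the 1156 called for layer at P2 in the MEC became 672 with limma voom, 542 in a fit of the region alone, 45 in a fit of the age alone, 1782 without both libraries numbered 1 and 2461 without MEC LDeep P2 replicate 1. In a fit of the region alone, 434 genes changed their layer difference with age in the MEC and 493 in the LEC. With the replicate block, 286 differed in layer difference between regions in place of 156, and 152 in place of 72 changed their LDeep region difference with age. Region calls became 136 and 326 at P23 and P45 in LDeep and 327 and 466 at P9 and P23 in LII.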
